A study of Homo sapiens with 6 samples.

Results

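The Janus kinases, JAK1, JAK2, JAK3 and TYK2, were represented by 4 of the 939 library wells of a kinase-centred siRNA screen. The wells were taken by the locus identifiers in the deposited table, which are 3716 for JAK1, 3717 for JAK2, 3718 for JAK3 and 7297 for TYK2. Each gene had 1 well, so each value below comes from 1 siRNA reagent in 1 plate position. JAK1, JAK2 and JAK3 lay on plate 2 in row 5, at columns 11, 13 and 15, and TYK2 lay on plate 3 in row 7, at the outer column 24. Sequences of the reagents were not used here.

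The screen used SUM149PT, an established human line of triple-negative inflammatory breast cancer, and asked which knockdowns add to the effect of eicosapentaenoic acid (EPA), a polyunsaturated fatty acid of fish oil. Library and siRNA control wells were transfected with siRNA at 45 nM for 48 hours, and further wells held cells without siRNA. The untreated group then stayed without EPA and the EPA group received it at 50 µM for 72 hours, with 3 samples in each. No source used here says whether the samples were separate cultures, so each test weighs a difference against the spread of 3 samples that may be technical repeats. Untreated samples are called replicates 1 to 3 and EPA samples replicates 4 to 6, after the columns of the table, and the numbers pair nothing. The readout was the fluorescence of a resazurin product made by living cells. It cannot tell fewer cells from less dye reduced per cell, and no transcript or protein level was measured, so neither the knockdown nor the markers of the cell line could be checked.

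JAK kinases are bound to the inner tails of cytokine receptors. When a ligand joins receptor chains, paired JAKs phosphorylate each other and the receptor, and STAT transcription factors are then recruited, phosphorylated and sent to the nucleus. JAK1 serves interferon, interleukin-6 type and common gamma chain receptors, JAK2 serves receptors for erythropoietin, growth hormone, prolactin and interferon gamma, JAK3 pairs with the common gamma chain mainly in lymphocytes, and TYK2 works with JAK1 or JAK2 at type I interferon and interleukin-12 type receptors. In breast epithelium, JAK2 with STAT5 carries the prolactin signal, and JAK1 and JAK2 carry that of interleukin-6 to STAT3.

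The 4 wells gave 3 different courses. The JAK2 well read like wells without cells, with EPA and without. The TYK2 well was high without EPA and kept 31.5% ± 2.49 of its signal with EPA (SE), beside 57.0% ± 3.79 for the library median of its plate and 33.1% ± 1.41 for cells without siRNA in its plate row. The JAK1 well stood above the library and the JAK3 well near its middle. They kept 54.9% ± 9.09 and 57.2% ± 9.07 of their signal with EPA (SE), and for neither did limma detect a change relative to the library. The control wells set the scale of these readings. Over the 6 samples the mean of the blank wells was between 3695 and 3918 units, and that of OTP3, the negative control siRNA, between 48180 and 50654 untreated and between 23032 and 28317 with EPA. The library median lay between 21844 and 24208 untreated and between 12373 and 15113 with EPA.

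JAK2 gave the second lowest relative signal of all 939 wells without EPA and the lowest with it. Its well read 4249, 3568 and 3751 units in untreated replicates 1 to 3 and 3655, 3615 and 3670 with EPA in replicates 4 to 6. The groups overlapped in these units, and blank wells of the same plate had medians between 3600.5 and 3964. JAK2 read below the blank median of its plate in 5 of 6 samples. In untreated replicate 1 none of the 16 blank wells read higher than JAK2, and in the other 5 samples 12 to 15 of the 16 did. TOX, which the labels name as the positive siRNA control, had a plate median of 4543 ± 208 untreated and 4058 ± 399 with EPA (SD, n = 3). The mean of JAK2 was below that of TOX in both groups.

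Relative to the library median of its plate, JAK2 stood at -2.67 on the log2 scale without EPA (SE 0.0981, limma adjusted p = 2.22e-08) and at -2.02 with EPA (adjusted p = 1.10e-07), below the median in 6 of 6 samples. EPA minus untreated was 0.66 (SE 0.139, adjusted p = 0.00462), with all 3 EPA values above all 3 untreated values. The JAK2 well itself read 3856 ± 352 untreated and 3647 ± 28.4 units with EPA (SD, n = 3 each; exact permutation p = 0.5), while the library median of plate 2 kept 60.7% ± 7.22 of its signal (SE). After blank subtraction JAK2 was at the floor in 6 of 6 samples, at -4.89 untreated and -4.13 with EPA, so no size can be given for its distance from other wells, and the difference no longer passed (0.77, limma adjusted p = 0.159), nor did it with quantile normalization (0.02, adjusted p = 0.849). No further loss of signal with EPA could be measured in this well.

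TYK2 fell with EPA, also relative to the library median of its plate. Its well read 32706, 32847 and 37271 units untreated and 12194, 10290 and 9896 with EPA. The groups were far apart, and 31.5% ± 2.49 of the untreated signal was left (SE; exact two-sided permutation p = 0.1). That is the smallest p this permutation test can give for 3 against 3 samples. On the log2 scale relative to the library median TYK2 stood at 0.61, 0.85 and 0.85 untreated and at 0.02, -0.21 and -0.07 with EPA. It was thus above the library without EPA in 3 of 3 samples and near the library median with EPA. The untreated mean was 0.77 (SE 0.10, limma adjusted p = 7.43e-05), the EPA mean was -0.09 (adjusted p = 0.436), and EPA minus untreated was -0.86 (SE 0.142, adjusted p = 0.00162), the 70th lowest of 939.

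TYK2 was lower with EPA under each of the 17 alternatives listed for it that could be run, with limma adjusted p between 9.27e-05 and 0.0347. Relative to the library, on the log2 scale, the difference ran from -0.80 without EPA replicate 5 to -1.33 after blank subtraction with median polish. Relative to OTP3 it was -0.47. Median polish, which removes the common level of each plate row and column, gave -1.08 and put the EPA mean at -0.39, past the threshold (adjusted p = 0.00607). With the other edge wells left out of the plate median and the fit, the difference was -0.86 (adjusted p = 0.0017). TYK2 sat in column 24, an edge column where the other library wells of plate 3 kept much of their signal. Of the other 12 wells there, the median stood at 0.68 untreated and 0.95 with EPA, and the median difference was 0.38. The difference of EDNRA, an endothelin receptor, was below that of TYK2, at -0.87, and that of GNAI3, a G protein subunit, came next above it at -0.38. Both were named after their values were seen. Over column 24 of all 3 plates 1 of 44 other wells lay below TYK2, and over all edge wells 3 of 158 did.

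**Figure D1:**
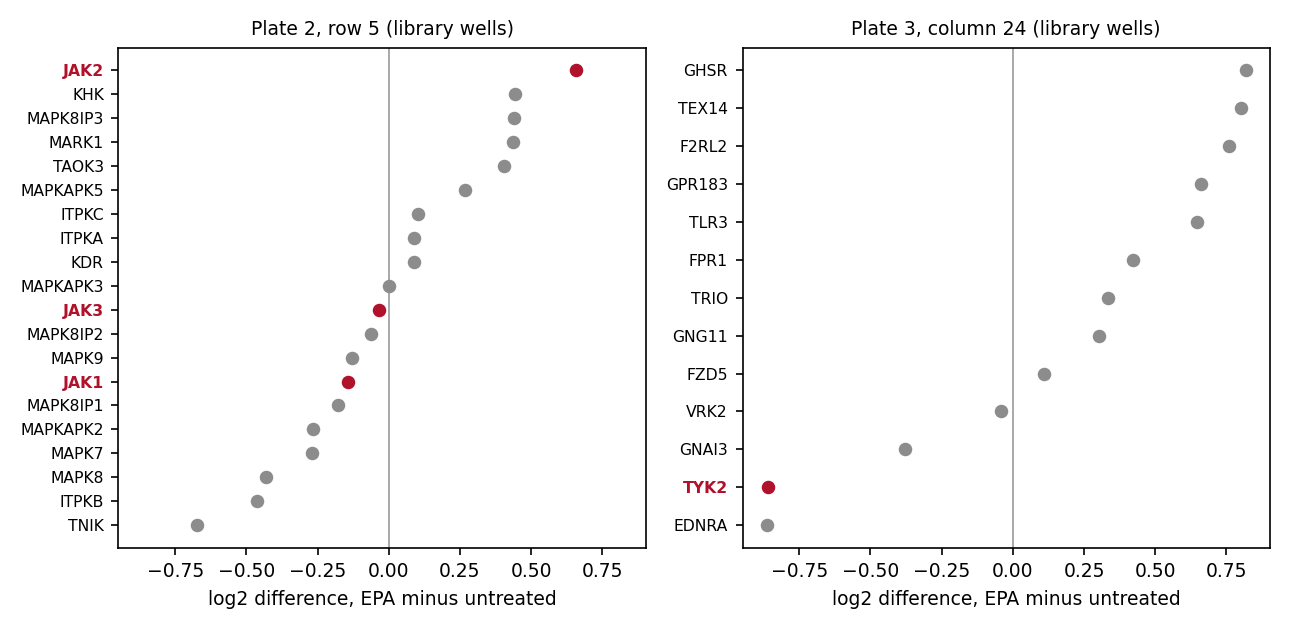
Log2 difference, EPA minus untreated, relative to the library median of the plate (horizontal axis), for each library well of plate 2 row 5 (left) and of plate 3 column 24 (right), 1 point per well from the fit over 3 samples a group. JAK wells are in red: JAK2 is the highest of its row at 0.66, JAK1 and JAK3 lie in the middle of theirs at -0.14 and -0.03, and TYK2 lies next to the lowest of its column at -0.86.

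In units of signal left, TYK2 at 31.5% was below the OTP3 median of its plate, which kept 43.5% ± 2.69 (SE), and below the other library wells of column 24, whose median kept 68.5% ± 7.29. The 2 OTP3 wells of the same plate row kept 37.0% ± 2.80 and cells without siRNA in that row 33.1% ± 1.41. The library median of that row, TYK2 included, kept 74.6% ± 7.57. As a share of the OTP3 plate median TYK2 was at 75.8% ± 4.65 untreated and at 54.8% ± 3.99 with EPA (SD, n = 3). Against the OTP3 wells of its own row the shares were 83.4% ± 3.45 and 70.9% ± 2.07. The EPA share of the plate was 48.6% on the OTP3 mean and 43.4% after blank subtraction. Blank subtraction also put the signal left at 22.5% ± 2.64 (SE) for TYK2. On that scale cells without siRNA in the row kept 26.8% ± 1.29 and the OTP3 wells of the row 30.2% ± 2.86. The library median of the row kept 59.3% ± 10.3. The OTP3 plate median then kept 38.0% ± 2.77 and the other wells of column 24 a median of 64.0% ± 8.30. The samples of the groups did not overlap in the share of the OTP3 plate median or of the OTP3 wells of the row (exact permutation p = 0.1 for each, and 0.2 and 0.133 adjusted over the 4 genes).

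JAK1, the partner of TYK2 at interferon receptors, had a high well in both groups. It read 42667, 30287 and 34188 units untreated and 22869, 21350 and 14562 with EPA. All EPA values were below all untreated values, and 54.9% ± 9.09 of the signal was left (SE; exact permutation p = 0.1), beside 60.7% ± 7.22 for the library median of plate 2 and 42.4% ± 4.65 for its OTP3 median. Relative to the library median, on the log2 scale, JAK1 stood at 0.67, 0.39 and 0.51 untreated and at 0.34, 0.61 and 0.21 with EPA, above it in 6 of 6 samples with overlapping groups. The untreated mean of 0.53 (SE 0.107) and the EPA mean of 0.38 both passed (limma adjusted p = 0.00137 and 0.00763). The EPA mean did not pass without EPA replicate 5 (0.27, adjusted p = 0.0708). EPA minus untreated was -0.14 (SE 0.151, adjusted p = 0.459).

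JAK1 was higher relative to the library median, which was itself below OTP3 in both groups. Centred on OTP3, JAK1 stood at -0.57 untreated (limma adjusted p = 0.00159) and at -0.20 with EPA (adjusted p = 0.23). As a share of the OTP3 median of plate 2 it was at 67.9% ± 11.6 untreated and 88.9% ± 21.0 with EPA (SD, n = 3), with overlapping groups (exact permutation p = 0.2). Against the 2 OTP3 wells of row 5 the shares were 69.2% ± 11.1 and 96.8% ± 14.7, where the groups did not overlap (exact permutation p = 0.1, and 0.133 adjusted over the 4 genes).

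JAK3, the JAK of lymphocyte cytokine receptors, was near the middle of the library. Its well read 32800, 27847 and 18616 units untreated and 14523, 15277 and 15521 with EPA. Untreated replicate 3 was the low one, and 57.2% ± 9.07 of the signal was left with EPA (SE; exact permutation p = 0.1). JAK3 stood at log2 values of 0.30, 0.27 and -0.36 untreated and at -0.32, 0.12 and 0.30 with EPA, so both groups spanned the library median and overlapped each other. The means were 0.07 and 0.03 (limma adjusted p = 0.718 and 0.848), and EPA minus untreated was -0.03 (SE 0.225, adjusted p = 0.916). Its SE was the largest of the 4 wells. Centred on OTP3, JAK3 was below the negative control in both groups, at -1.03 and -0.54 (adjusted p = 4.01e-05 and 0.00958), with shares of the OTP3 plate median of 50.4% ± 14.4 and 69.6% ± 13.9 (SD, n = 3; exact permutation p = 0.3).

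**Figure D2:**
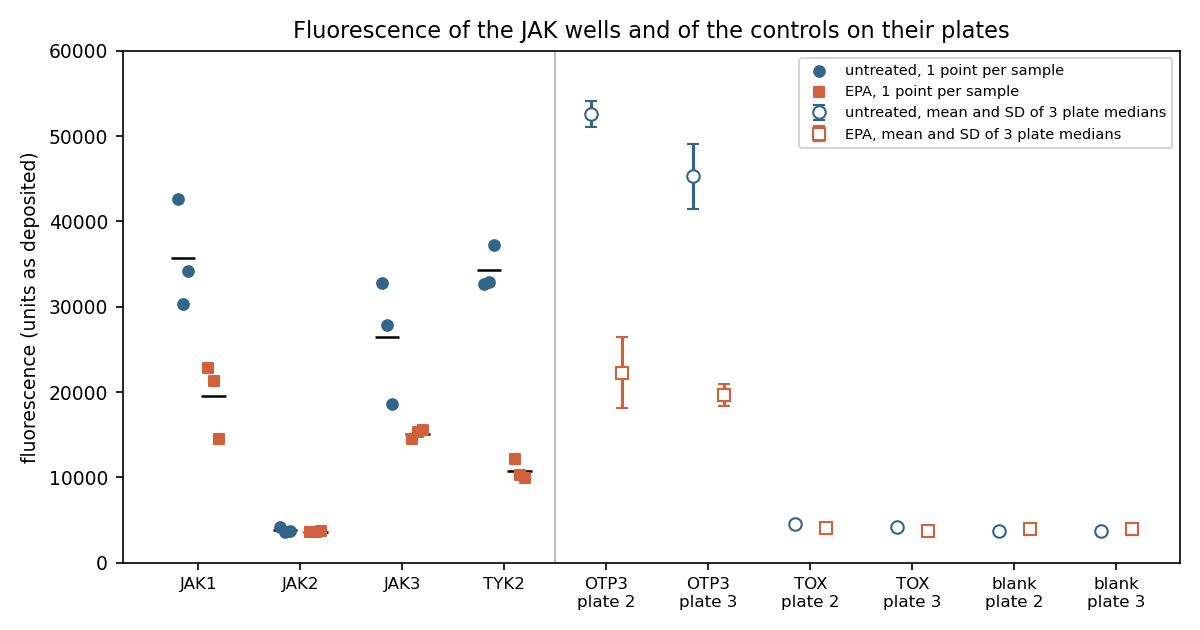
Fluorescence in the units deposited (vertical axis, from 0) of the 4 JAK wells, with 1 filled point per sample and a black line at the mean, beside the OTP3, TOX and blank wells of the 2 plates they lay on, shown as open points with the mean and SD of 3 plate medians. The JAK2 points lie level with the blank wells, and TYK2 has means of 34275 units untreated and 10793 with EPA.

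By the counts without EPA, 1 of 4 members (JAK2) was called lower and 2 (JAK1 and TYK2) higher, where limma called 35.6% of all 939 wells lower and 33.9% higher. With EPA 1 was lower and 1 higher, where 37.0% and 36.4% of all wells were. In EPA minus untreated TYK2 was lower and JAK2 higher, where 15.2% and 29.0% of all wells were. The same 2 wells were those whose groups did not overlap, as did not those of 18.8% of all wells in the lower direction and 36.0% in the higher. From 4 wells, nothing particular to the family can be read from such counts. The median of all wells stood at 0.20 in EPA minus untreated, so JAK1 and JAK3 lay slightly below it and TYK2 at a larger distance. Centred on OTP3, all 4 were lower without EPA and 3 with it, where 91.8% and 64.6% of all wells were, and JAK2 (1.18) and TYK2 (-0.47) were still the 2 that passed in the difference.

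**Figure D3:**
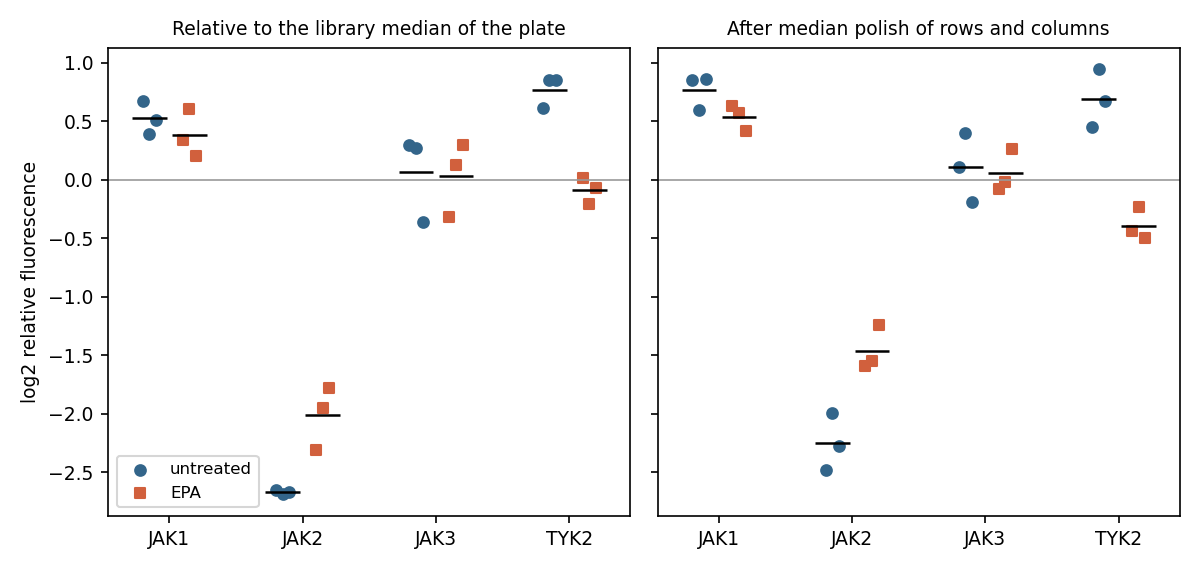
Log2 fluorescence of the JAK wells relative to the library median of the plate (left) and after median polish of plate rows and columns (right), with 1 point per sample and a black line at the mean of 3. The order of the wells is the same in both panels without EPA except for JAK1 and TYK2, and with EPA TYK2 lies at -0.09 on the left and at -0.39 on the right.

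Without EPA the relative signals ran from TYK2 and JAK1 over JAK3 down to JAK2. The ranges of TYK2 and JAK1 overlapped, with JAK1 minus TYK2 at -0.24 ± 0.272 (SD, n = 3). The range of JAK1 lay above that of JAK3, but their difference of 0.46 ± 0.384 was close to its own spread. JAK2 lay below JAK3 in 3 of 3 samples. With EPA the order was JAK1, JAK3, TYK2 and JAK2. JAK3 overlapped JAK1 above it and TYK2 below it, whereas JAK1 lay above TYK2 by 0.47 ± 0.30, and JAK2 was the lowest in 3 of 3 samples.

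Whether 2 members differed in their change with EPA was tested on their difference within each sample, for the 6 pairs, in a test chosen after the values were seen. JAK1 minus TYK2 was larger with EPA by 0.72 on the log2 scale and JAK3 minus TYK2 by 0.83. For TYK2 and JAK1 the groups did not overlap (exact permutation p = 0.1, 0.15 adjusted over the 6 pairs), while for TYK2 and JAK3 they did (p = 0.2 by the exact permutation test, 0.24 adjusted). JAK1 minus JAK3 changed by -0.11 with overlapping groups (exact permutation p = 0.8). The smallest p that the exact permutation test allows here is 0.1, so none of the pairs could pass a threshold of 0.05 in it. The 3 pairs with JAK2 had p = 0.1 in the exact permutation test and rest on a well at the blank level.

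The wells around the members were also read, since edge wells read higher than the library median. Row 5 of plate 2 held 17 other library wells, with a median of 0.09 untreated, 0.19 with EPA and 0.00 for the difference. JAK1 was above 15 of them untreated and above 13 with EPA. JAK3 was above 7 in each group, and JAK2 was below all 17. Among the 8 wells that touched JAK1, the median was -0.37 untreated and -0.71 with EPA, and JAK1 was above all 8 in both groups. The 8 wells around JAK2 had a median of -0.044 untreated, and JAK2 was below all of them in both groups. Row 7 of plate 3 held 19 other library wells, with a median of -0.99 untreated, -0.62 with EPA and 0.44 for the difference. TYK2 was above all 19 untreated and above 11 with EPA, and its difference was below all of theirs. The 5 wells that touched TYK2 had medians of 0.80 untreated, 1.37 with EPA and 0.42 for the difference. The difference of TYK2 was below all 5. Repeat wells give a measure of what 1 well is worth. For the 13 reagents of the library placed on 2 wells, the pairs differed by a median of 0.56 untreated, 0.64 with EPA and 0.37 in EPA minus untreated, with highest gaps of 1.34, 1.46 and 0.71. In EPA minus untreated, relative to the library median, TYK2 (-0.86) exceeded the highest gap, and JAK2 (0.66), JAK1 and JAK3 did not. This reading depends on the centring. Centred on OTP3, TYK2 (-0.47) lay within that gap of 0.71 and JAK2 (1.18), a well at the blank level, lay beyond it. The gaps were not taken again on that centring. TYK2 was also only the 70th lowest library well, so passing the highest gap of 13 pairs does not set it apart. Relative to the library median, the untreated levels of TYK2 (0.77) and JAK1 (0.53) lay within the highest untreated gap, and that of JAK1 under the median gap.

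The library wells most like each member were found by the distance between their 6 relative log2 values. For JAK2 they were PLK1, a kinase of mitosis (distance 0.209), CHEK1, a checkpoint kinase (0.764), and FN3KRP (0.892). PLK1 stood at -2.69 untreated and -1.99 with EPA, and likewise shared the blank level. For TYK2 they were CELSR1, a cadherin receptor (0.277), GUCY2C, a guanylate cyclase receptor (0.302), and GNAZ, a G protein subunit (0.404), with untreated means of 0.84, 0.77 and 0.85 and EPA means of -0.15, -0.08 and 0.01. CHRM2, ETNK1 and CLK4 were nearest to JAK1, at distances of 0.253 to 0.387, and CDADC1, CDK4 and TSSK2 to JAK3, at 0.516 to 0.581. After median polish 0 of the 3 named wells stayed among the nearest for each of the 4 members.

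**Figure D4:**
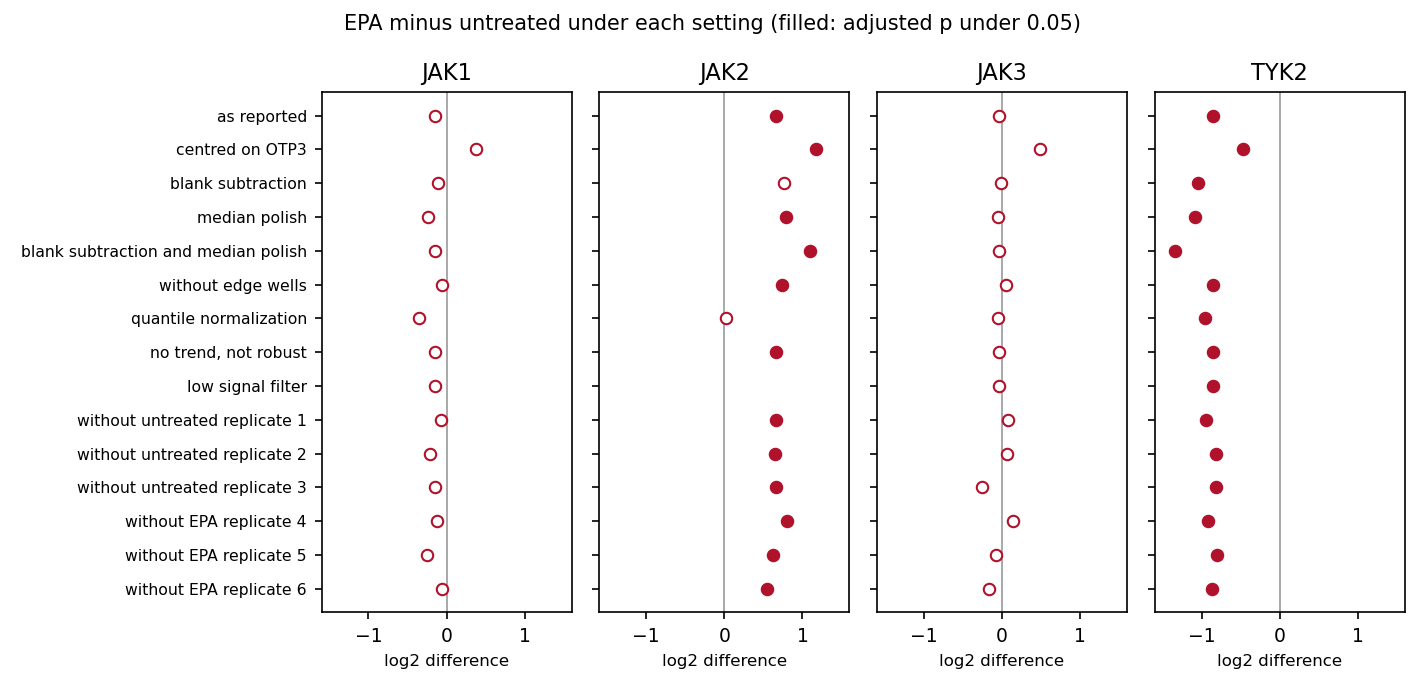
Log2 difference, EPA minus untreated (horizontal axis), of each JAK well under the fit as reported and under the alternatives on the log2 scale, 1 point per setting, filled where the limma adjusted p was under 0.05. TYK2 is on the left of 0 and filled wherever it could be fitted. JAK2 is on the right of 0 and open after blank subtraction alone and after quantile normalization, but filled after blank subtraction with median polish. JAK1 and JAK3 are open throughout.

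Other genes of cytokine receptor signalling were read from 8 lists with 151 genes, of which 43 were measured on 44 wells. Untreated, 19 of these wells were called lower and 12 higher (43.2% and 27.3%, beside 35.6% and 33.9% of all wells). In EPA minus untreated 7 were lower and 14 higher (15.9% and 31.8%, beside 15.2% and 29.0%), with a median of 0.26 beside 0.20 for all wells. The lists were thus close to the whole library in that comparison, and 10 of their wells were edge wells. After median polish 7 were higher, where 16.3% of all wells were.

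Upstream of the JAKs, IL2, the interleukin whose receptor uses JAK1 and JAK3, was the 1 measured gene of 78 listed ligands and receptors. It was higher without EPA (1.06) and in EPA minus untreated (0.89, limma adjusted p = 0.00242), in an edge well, and neither value passed after median polish (0.16 and 0.10). Of 3 measured regulators and adaptors, SOCS1, an inhibitor that binds JAKs and blocks their kinase activity, was lower in EPA minus untreated, at -1.05 (SE 0.257, adjusted p = 0.00919). Its well read 17846 ± 7364 untreated and 4627 ± 457 units with EPA (SD, n = 3), close to the blank level, and the difference passed after median polish too (adjusted p = 5.59e-04). SHC1, an adaptor that links receptors to RAS, was low in both groups, at 7991 and 7421 units, and its difference of 0.71 did not pass after median polish (0.28). SOCS5 was at -0.13 (adjusted p = 0.66).

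Among kinases that act beside JAKs at receptors, the SRC family had 3 of 9 lower and 1 higher in EPA minus untreated, beside 15.2% and 29.0% of all wells. The 3 became 1 after median polish, with or without blank subtraction, when centred on OTP3 and at a threshold of 0.01. Of all wells, 14.8% were lower after median polish, 15.5% with blank subtraction too, 6.28% centred on OTP3 and 10.3% at 0.01. SRC itself was lower (-1.0, SE 0.150, limma adjusted p = 0.00108, and -0.79 after median polish), with 26910 ± 2841 units untreated and 7641 ± 127 with EPA (SD, n = 3). FYN was lower too (-0.59), but not after median polish (-0.025), and FGR was higher (0.83, and 0.82 after median polish). Of 5 TEC family kinases, TEC was lower (-0.60, adjusted p = 0.0108, and -0.76 after median polish) and 0 were higher. TEC did not pass when centred on OTP3 (-0.21, adjusted p = 0.288), after blank subtraction with median polish (adjusted p = 0.0582) or without untreated replicate 2 (adjusted p = 0.0521). It lay in an edge well, like TYK2. The PIM kinases PIM1 and PIM2, products of STAT target genes, had 0 of 2 called by limma, at 0.44 and 0.05, and with an unadjusted p under 0.05 for 1 of them, PIM1. Its adjusted p was 0.0501, and PIM1 passed under several alternatives. These were without EPA replicate 6 (0.53, adjusted p = 0.047) and centred on OTP3 (0.96, adjusted p = 0.00167), where 58.1% of all wells were higher. It also passed with quantile normalization (adjusted p = 0.0482), the other variance model (0.0389) and the low signal filter (0.0478). After median polish it did not pass (0.19, adjusted p = 0.476).

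Downstream, the PI3K and AKT arm had 1 of 14 wells lower and 6 higher, beside 15.2% and 29.0% of all wells. The higher count was 3 without EPA replicate 6, 11 when centred on OTP3 and 2 after blank subtraction with median polish. Of all wells, 23.0%, 58.1% and 13.7% were higher under these settings. MTOR was at -1.54 (SE 0.197, limma adjusted p = 0.000549), with 25027 ± 3849 units untreated and 5337 ± 653 with EPA (SD, n = 3). PIK3CG, a catalytic PI3K subunit of blood cells, led the higher ones at 1.05, beside PIK3R1, a regulatory subunit, at 0.59 and RPS6KB1, an S6 kinase, at 0.58. After median polish PIK3CG still passed (0.68), and PIK3R1 (0.33) and RPS6KB1 (0.27) did not. The RAF, MEK and ERK arm had 1 of 7 lower, MAP2K1 at -0.70, and 3 higher, among them the ERK kinase MAPK3 (0.74). MAPK3 was low without EPA, at -1.17, and its well had 11074 ± 2236 units then and 11342 ± 3826 under EPA (SD, n = 3). After median polish neither MAPK3 (0.42) nor MAP2K1 (-0.39) passed, and MAPK3 did not pass without untreated replicate 3 (0.58, adjusted p = 0.0559). Of 3 kinases of the interferon response 2 were higher, TBK1 (0.81) and EIF2AK2 (0.57), and neither passed after median polish.

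**Figure D5:**
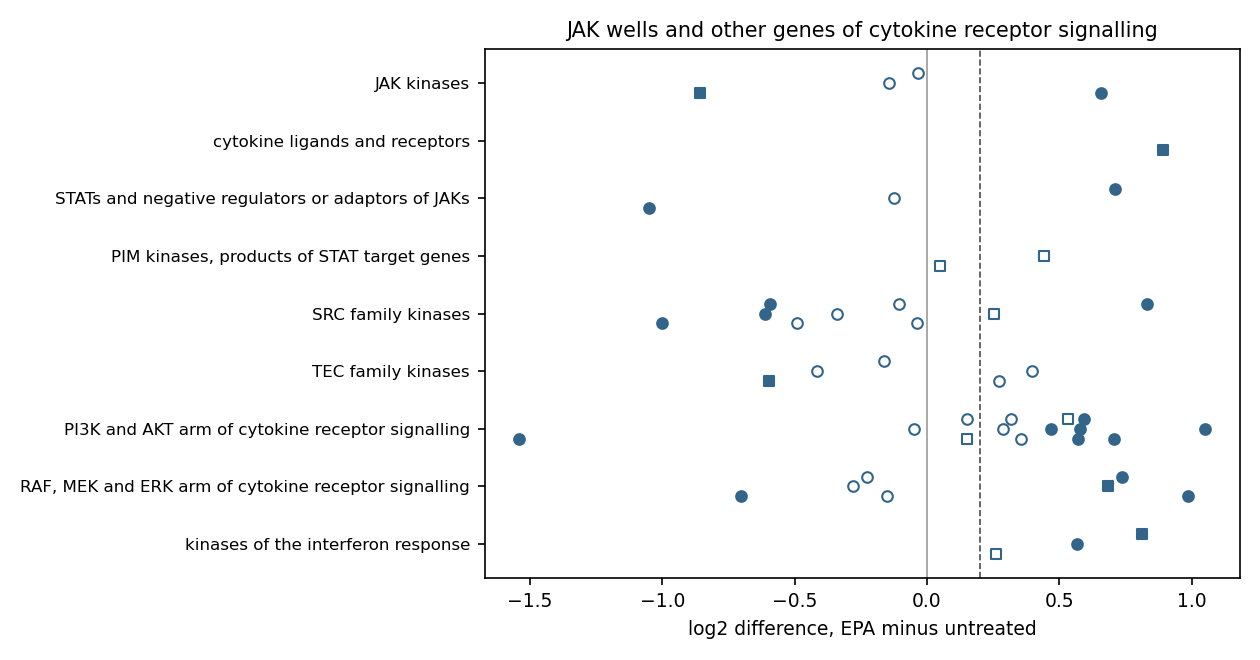
Log2 difference, EPA minus untreated (horizontal axis), for the JAK wells and for each well of 8 lists of cytokine receptor signalling, 1 point per well. Filled points passed an adjusted p under 0.05, squares are edge wells, the solid line marks 0 and the dashed line the median of all 939 wells at 0.20; the lists spread to both sides of it.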

How the data were processed

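The deposited values are raw fluorescence intensity, given as whole numbers for each well, per the file headers. Blank subtraction or other processing by the authors is not given in the sources used here. Columns carry a group but no sample number of the labels. All 6 were used. The table held 3 plates of 16 rows and 24 columns. Symbols were updated by locus identifier through a RefSeq table of GRCh38.p14 (933 of 939 matched). A well with the symbol and transcript of LYN and the locus of FYN was taken as LYN.

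Values were taken as log2 ratios to the library median of the same plate and column of the table. limma 3.58.1 in R 4.3.3 (trend and robust) fitted 1 mean per group over all 939 library wells, with two-sided Benjamini-Hochberg adjustment at 0.05, and was tested on simulated data. Other p-values are exact permutation tests over samples (scipy 1.17.1). Edge wells are rows 1 and 16 and column 24. With 3 samples a group and 1 well a gene, precision is low. The members and lists were chosen with earlier results of these data known. The 4 members were always named, with the 3 wells nearest to each and, per list, up to 4 genes with the largest moderated statistic in EPA minus untreated or without EPA. Some of these are counted in their lists and not reported by name here. Alternatives covered centring, blank subtraction (floor of 3 SDs of the blank wells), plate position, edge wells (a member among them kept), scale, quantile normalization, variance model, a filter at 2 times the TOX mean, thresholds and leaving out each sample.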

Additional observations from a re-analysis of the deposited data

How the results depend on the processing

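Of 201 alternative values of the 12 member results, 179 kept their direction and side of the threshold. Centred on OTP3, the untreated values of JAK1 (-0.57), JAK3 (-1.03) and TYK2 (-0.40) and the EPA values of JAK1 (-0.20) and JAK3 (-0.54) turned negative, 4 members were lower and 0 higher untreated, and 3 lower and 0 higher with EPA, where 862 and 5, and 607 and 127, of all 939 wells were. Values that were not called changed sign for the differences of JAK1 (0.38) and JAK3 (0.49) on that centring, and for the JAK3 difference (0.049) and TYK2 with EPA (0.063) without edge wells. Leaving out samples gave JAK3 values of -0.045 to 0.28 untreated, -0.097 to 0.21 with EPA and -0.25 to 0.14 for the difference. Without EPA replicate 5 JAK1 did not pass, so leaving out samples gave 0 to 1 higher members with EPA. Median polish, alone or with blank subtraction, gave 2 lower members with EPA, where 30.4% and 30.9% of all wells were. JAK2 was not higher after blank subtraction alone or quantile normalization (0 members). The low signal filter removed JAK2, leaving 0 lower members in either group and 0 higher in the difference; there the cause is the missing well. Elsewhere the cause was not tested.

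For the 8 lists together, 44 wells, OTP3 centring gave 40 lower and 0 higher wells untreated and 3 lower and 25 higher in the difference. Of all wells, 91.8% were lower and 0.532% higher untreated, and 6.28% and 58.1% in the difference. Without edge wells, which took out 10 of the 44, 7 were higher untreated, beside 33.4% of the 781 wells fitted. In the difference median polish gave 7 higher, with blank subtraction 4, beside 16.3% and 13.7% of all wells. A threshold of 0.01 gave 3 lower and 7 higher, beside 10.3% and 14.4% of all wells. With OTP3 centring the untreated values of IL2 (-0.039), PIM2 (-0.55), TEC (-0.027), TXK (-0.80), PIK3CA (-0.58), EIF2AK2 (-0.34) and TBK1 (-0.16) turned negative, as did the IL2 difference after blank subtraction with median polish (-0.017). Further values that were not called changed sign. SOCS1 untreated was 0.28 after median polish, 0.36 with blank subtraction and -0.50 to 0.023 leaving out samples. The SOCS5 difference was 0.26 centred on OTP3, 0.031 after median polish and -0.30 to 0.032 leaving out samples. That of PIM2 was -0.20 after median polish, -0.25 with blank subtraction, -0.17 with quantile normalization and -0.18 to 0.24 leaving out samples. That of IKBKE was -0.35 after median polish and -0.49 with blank subtraction. Over all wells OTP3 centring moved the median to -1.13 untreated and the difference to 59 lower and 546 higher, and median polish gave 139 and 153. No paired analysis was possible because the columns are numbered 1 to 6 through both groups and carry none of the shared numbers of the labels. Wells at the floor after blank subtraction, such as JAK2, allow no reading of further loss.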
